A study of Saccharomyces cerevisiae with 16 samples.

Results

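The mitochondrial ribosomal proteins of Saccharomyces cerevisiae were taken as the genes whose symbol is MRPL, MRPS, MRP or RSM followed by a number, with MRP8 left out. This rule, which uses names and no measured value, found 65 of the 6692 genes in the count table. By the universal naming of ribosomal proteins, 37 belong to the large and 28 to the small subunit, 40 have a counterpart in the bacterial ribosome, and 24 are specific to mitochondria. The remaining member, RSM22, encodes a methyltransferase-like protein of small subunit assembly and has no such name. The genes lie on 14 chromosomes, and MRPS12 and RSM19 are the only pair of them that are neighbours.

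RNAseq measured mRNA, and Riboseq measured the fragments that ribosomes shield from RNase I, called footprints here, in the same extract of each of 8 cultures. Both strains were haploid MATa his3Δ1 leu2Δ0 ura3Δ0 met15Δ0 cells deleted for chromosomal TIF3, which encodes the initiation factor eIF4B. Both carried a single-copy plasmid (HIS3, LEU2, URA3 and MET15 markers) with His-tagged TIF3 under its own promoter. In WT (labelled BY4741) the plasmid copy was full length, and in ∆ntd it lacked the N-terminal domain, one of the domains with which eIF4B binds the ribosome. Each strain was grown at 30 °C in SD, a minimal medium, without urea (WS for WT, NS for ∆ntd) or with 3% urea (WU for WT, NU for ∆ntd), and 2 cultures of each were lysed in cycloheximide at an OD600 of 0.8. The questions were how urea changed each strain, how the strains differed in each medium, and whether the response to urea differed between them.

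Mitochondrial ribosomes make the proteins encoded by mitochondrial DNA, most of them core subunits of the respiratory chain and the ATP synthase. Apart from Var1, their own proteins are encoded in the nucleus, made on cytosolic ribosomes and imported, so the footprints counted here are those of cytosolic ribosomes. In yeast the RNA-binding protein Puf3 binds an element downstream of the stop codon of many of these mRNAs and is known to act on their decay, their translation and their location near mitochondria.

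The Puf3 element was searched as TGTANATA, on the sense strand, in the 250 nt after each stop codon of the R64 genome (RefSeq annotation). It was found for 64 of the 65 genes (98.5%), for 37 of 37 of the large and 27 of 28 of the small subunit, and RSM22 was the gene without a match. Among all 5988 protein-coding genes matched to the annotation 909 (15.2%) held it, and among 138 cytosolic ribosomal protein genes 8 (5.8%) did. On the antisense strand of the same windows the shares were 20.0% and 14.6% for the 65 and for all genes. The 80 matches were TGTAAATA in 36 cases, TGTATATA in 25, TGTACATA in 18 and TGTAGATA in 1. The first match began a median of 51 nt after the stop codon, 50 genes had 1, 12 genes had 2, and RSM19 and MRPL19 each had 3. A match describes the letters in the window and is not evidence of binding in these cultures. The elements are shown on the sense strand, 5′ to 3′ and in capitals. They are those of MRPL38, RSM7 and MRPL24, the 3 members called in the test for a different response to urea between strains. Also shown are those of the neighbours RSM19, which has 3, and MRPS12, the most abundant member.
MRPL38, chrXI:131135-131164, plus strand: aattaaccaccTGTATATAttgcttaaatt
RSM7, chrX:638192-638221, minus strand: gtaaacttgccTGTACATAaacacatttat
MRPL24 first, chrXIII:650856-650885, plus strand: tggttttccccTGTATATAaaaaagcatat
MRPL24 second, chrXIII:650880-650909, plus strand: gcatatctgttTGTACATAtgtaggtatgc
RSM19 nearest the stop, chrXIV:695022-695051, minus strand: gggatctagTGTATATAgatttctagatga
RSM19 middle, chrXIV:694996-695025, minus strand: atgatatatcaTGTAAATAagatcaagcca
RSM19 farthest, chrXIV:694968-694997, minus strand: cagactcgggcTGTATATAtatatatatat
MRPS12, chrXIV:694269-694298, minus strand: atacaacctttTGTAAATAgcaatgaccat

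Between the stop codon of RSM19 (YNR037C, chrXIV:695052-695327) and the start of MRPS12 (YNR036C, chrXIV:694361-694822), both on the minus strand, lie 229 nt, so the 3 RSM19 elements are in the interval between these genes.

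Library sizes were 1888481 to 5169546 counts in RNAseq and 3067506 to 17380262 counts in Riboseq, and the 65 genes passed the filter on low counts in each assay. A single member was covered by 14 to 563 RNAseq counts (median 94.0) and by 17 to 1782 Riboseq counts (median 229.5) in a library. Riboseq depth differed between groups, with 4803862 and 3067506 counts in WT with urea, the fewest, and 17380262 and 14248946 in WT in SD. The 6 a-specific genes that define MATa cells were at 22.3 CPM (AGA2) or more, where CPM is the usual count scaled to library size, with TMM factors. The alpha-specific pheromone genes MF(ALPHA)1 and MF(ALPHA)2 were at 2.23 CPM or less, STE3 was at 1.69 to 5.33 CPM and SAG1 at 14.5 to 27.5 CPM. TIF3 RNA was at 1950 to 3290 CPM in every culture, and this value does not tell the plasmid alleles apart. Values are shares of a library, so fewer cells, or less RNA or fewer footprints per cell over all genes, cannot be told apart from no change.

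The Riboseq replicates of ∆ntd in urea stood apart from each other. Over the 65 genes, replicate 2 minus replicate 1 on the log2 scale had an SD of 0.57, against 0.15 to 0.22 in the other groups, and 24 genes differed by 1.5-fold or more against at most 1 elsewhere. Footprints on MRPS9 (uS9, a small subunit protein at the tRNA path) were 39.9 CPM in replicate 1 and 96.3 CPM in replicate 2. The median difference was 0.03, so neither replicate was higher throughout. The tests below let all groups share one spread per gene. Results for footprints and for TE, the ratio of footprint CPM to RNA CPM in a culture, are therefore also given from fits of only the groups compared where the call changes.

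**Figure D1:**
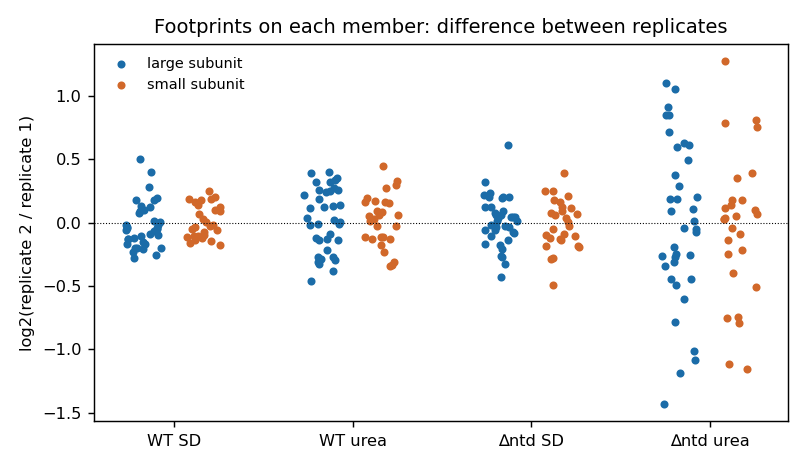
Log2 ratio of replicate 2 to replicate 1 of footprints (vertical axis) for each of the 65 genes in the 4 groups, the large subunit in blue and the small in orange. The points of ∆ntd in urea run from −1.43 to 1.27, and those of the other 3 groups stay between −0.49 and 0.61.

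In WT without urea these mRNAs were of middling abundance and somewhat above most genes in footprints. Per kb of coding sequence the median RNA level was 53.2 CPM (45.0 CPM over all genes), the median footprint level 40.1 CPM (25.0 CPM) and the median TE 0.742 (0.588). The large and the small subunit were close, with median RNA levels of 54.2 and 51.6 CPM per kb, footprint levels of 39.4 and 42.3 CPM per kb, and TE of 0.742 and 0.753. MRPS12 (uS12, a protein of the decoding centre) stood highest in RNA and in footprints, at 302 and 205 CPM per kb. RSM19 (uS19, which contacts the tRNA path) at 154 and MRPL39 (bL33) at 150 CPM per kb of RNA followed it. MRPL4 (uL29, at the rim of the exit tunnel) had the lowest RNA level, 15.9 CPM per kb, and the highest TE, 1.76, followed in TE by MRPS17 (uS17) at 1.37 and MRP10 (mS37) at 1.31. RSM22 had the lowest footprint level, 9.64 CPM per kb, and the lowest TE, 0.268, below MRP7 (bL27) at 0.457 and MRPL10 (uL15) at 0.507. Across the 65 genes, which share the same libraries, Spearman correlations are given as descriptions. TE was at −0.27 with coding length and −0.28 with the RNA level per kb, and footprints were at 0.78 with RNA per kb. TE has the RNA level of the same libraries as its divisor. Noise in RNA alone can therefore make its correlation with RNA negative, and no conclusion is drawn from that value. Coding lengths ran from 213 to 1887 nt with a median of 714 nt, against 1197 nt over all genes.

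**Figure D2:**
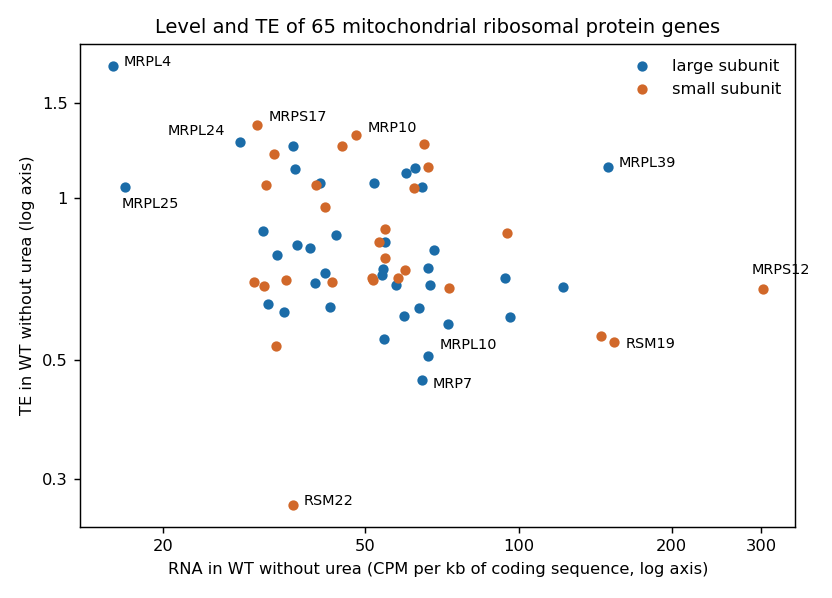
RNA in WT without urea in CPM per kb of coding sequence (horizontal log axis) against TE (vertical log axis), means of 2 cultures, 1 point per gene, the large subunit in blue and the small in orange. The subunits overlap over the whole range, MRPS12 lies alone at 302 CPM per kb, and RSM22 lies alone at a TE of 0.268.

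Summed RNA of the 65 genes in WT was 2433 and 2374 CPM (SD medium), then 2292 and 2266 CPM (urea). In ∆ntd it was 2716 and 2720 CPM (SD), then 2532 and 2384 CPM (urea). Summed footprints in WT were 1860 and 1827 CPM (SD), then 1490 and 1531 CPM (urea), and in ∆ntd they were 1708 and 1704 CPM (SD), then 1541 and 1795 CPM (urea). Summed RNA was thus highest in both SD cultures of ∆ntd, and summed footprints in both SD cultures of WT. The ratio of the sums in WT was 0.765 and 0.770 (SD), then 0.650 and 0.675 (urea), and in ∆ntd 0.629 and 0.627 (SD), then 0.608 and 0.753 (urea). In this ratio the 2 cultures of a group were close except in ∆ntd with urea, whose second culture lay near the WT cultures in SD. The median TE of the members did not show this. It was 0.613 and 0.599 in ∆ntd with urea and 0.758 and 0.775 in WT in SD, so the ratio of sums does not describe the typical member. With 2 cultures a group an exact permutation test cannot go below p = 0.333, so these sums carry no test.

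**Figure D3:**
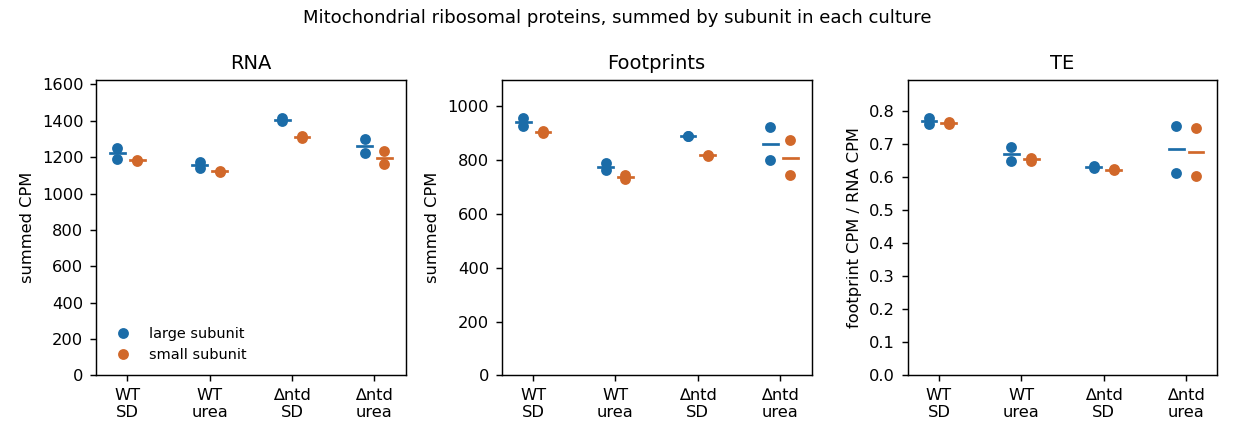
Summed RNA CPM, summed footprint CPM and their ratio (vertical axes, from 0) for the large (blue) and small (orange) subunit in each of the 8 cultures, with points for cultures and lines for group means. Both subunits are lower in footprints in WT with urea than without, and the 2 cultures of ∆ntd in urea lie far apart in footprints and TE.

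The subunits kept nearly the same proportion in every culture. The sum over the large subunit divided by that over the small was between 1.01 and 1.08 in RNA, 1.03 and 1.09 in footprints, and 0.993 and 1.05 in TE. In RNA, WT without urea gave 1.06 and 1.01 and ∆ntd without urea 1.06 and 1.08, so these groups met.

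In WT, urea went with fewer footprints on these mRNAs, and with little difference in their RNA. The fitted footprint change was below 0 for 56 of 65 genes, with a median of −0.31 on the log2 scale, beside −0.01 over the 5286 genes tested, of which 2713 were below 0. The libraries of the groups did not overlap for 43 members that were lower in urea (33.2% of all genes). Past the threshold, 4 members fell and none rose (quasi-likelihood test of edgeR, Benjamini-Hochberg adjustment over all genes), where 9.21% of all genes were called (4.73% rose and 4.48% fell). In the fit of only the WT libraries 28 members fell and none rose, beside 14.9% of all genes that rose and 14.6% that fell. In the shared fit the count was also 28 without either culture of ∆ntd in urea (14.8% and 14.7% of all genes fell), 1 without either culture of ∆ntd in SD, and 0 without any 1 of the WT cultures.

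RSM19 had 22.9 and 22.9 CPM of footprints in WT without urea and 13.0 and 13.8 CPM with urea. The ranges lay far apart, and the change was −0.78 (log2, SE 0.14, adjusted p = 0.0144, edgeR). MRPL24 (YMR193W, chrXIII:650036-650812, bL28 of the large subunit) had 28.8 and 26.9 CPM without urea and 16.7 and 18.1 CPM with it. This fall of −0.68 (SE 0.14, adjusted p = 0.0207, edgeR) left both urea cultures below every other culture of either strain. MRP2 (uS14) fell by 0.66 (SE 0.16, adjusted p = 0.0427) and RSM27 (mS33) by 0.59 (SE 0.15, adjusted p = 0.047; edgeR). Each of these 4 calls was lost in 4 to 6 of the 8 fits that left out a culture, among them every fit without a WT culture, while the changes stayed between −0.81 and −0.52.

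MRPS12, the most abundant member, had 97.1 and 92.0 CPM of footprints without urea and 62.8 and 55.4 CPM with urea in WT. The groups did not overlap, the change was −0.67 (SE 0.24, adjusted p = 0.129, edgeR), and it was past the threshold in the fit of only the WT libraries (adjusted p = 2.69e-06). Of the exit tunnel proteins, through which the new chain leaves the large subunit, MRPL4 (−0.65) and MRPL22 (uL22; −0.50) fell in that fit. MRPL23 (uL13; −0.58) fell in it too. MRP20 (uL23, where the tunnel opens) was at 32.3 and 30.8 CPM without and 28.1 and 36.9 CPM with urea, and these overlapped.

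RNA of 2 members fell in WT with urea, beside 28.5% of all genes called (16.1% rose and 12.4% fell). They were MRPL7 (uL5) at −0.47 (SE 0.17, adjusted p = 0.0369) and MRPL22 at −0.36 (SE 0.14, adjusted p = 0.0441; edgeR). The median RNA change of the members was −0.06 and that of all genes 0. Both calls were lost when WT replicate 2 without urea or either culture with urea was left out, and MRPL22 also without the other.

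For TE, no member passed the threshold in WT (edgeR), where 0.133% of all genes did (0.114% higher and 0.019% lower). At an unadjusted p under 0.05 there were 5, all lower, beside 10.1% of all genes (5.16% lower). DESeq2 also called 0, limma voom with a variance per group 1, and the fit of only the WT libraries 2, MRP1 (mS43) and MRPS12, both lower, beside 3.30% of all genes higher and 2.65% lower. TE was lower in urea for 55 of 65 genes by the fitted value, with a median of −0.21 (−0.02 over all genes), and 30 members did not overlap between the groups in that direction (26.8% of all genes).

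**Figure D4:**
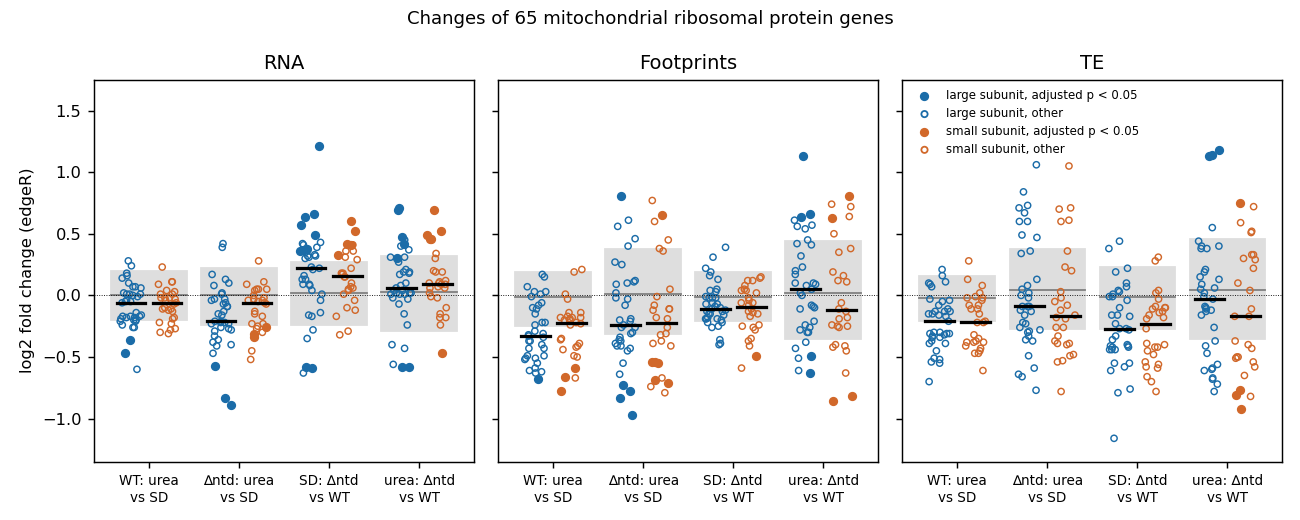
Fitted log2 fold changes (vertical axis) of RNA, footprints and TE for the large (blue) and small (orange) subunit in the 4 comparisons, filled where the adjusted p was under 0.05. Black lines are member medians, and the grey line and box are the median and quartiles of all genes tested. The footprint medians in WT urea against SD are −0.33 and −0.22, below the median of all genes, −0.01.

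Without urea, the fitted changes of ∆ntd against WT were above 0 in RNA for 50 of these genes and below 0 in TE for 52, and 15 of the RNA changes and none of the TE changes passed the test (edgeR). These comparisons share the WT cultures without urea with those above. RNA of 13 members rose and of 2 fell, beside 36.8% of all genes called (17.5% rose and 19.3% fell). The rises, 20.0% of the members, were near the share of all genes, and DESeq2 called 3 members. The median was 0.18 (0.02 over all genes). For 34 of the 65 genes the fitted RNA change was above 0 and the footprint change below 0, 16 were above 0 in both, 13 were below 0 in both and 2 had the opposite pair of signs. Scaled by library totals in place of TMM, 41 members rose and none fell in RNA (46.5% and 7.86% of all genes), but the median of all genes then lay at 0.31 and that of the members at 0.46. Across the fits that left out a culture the number of calls ran from 7 to 15, and MRPL38, MRPS9 and RSM28 were called in every one.

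MRPL38 (YKL170W, chrXI:130634-131050, uL14 of the large subunit at the face between the subunits) had the largest change. Its RNA was 16.9 and 19.7 CPM in WT and 43.5 and 40.8 CPM in ∆ntd, both without urea. The ∆ntd cultures lay above every other culture, at 2.31-fold of WT (log2 1.21, SE 0.18, adjusted p = 3.26e-06, edgeR), and the change was called under all 16 alternatives. Its footprints, 14.6 and 16.6 CPM in WT and 17.1 and 15.2 CPM in ∆ntd, overlapped. Its TE was accordingly 0.864 and 0.845 in WT and 0.393 and 0.373 in ∆ntd, without overlap (log2 −1.16, SE 0.33, adjusted p = 0.051, edgeR). In the fit of only these groups the adjusted p was 0.000139.

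MRPS9 RNA was 38.2 and 37.0 CPM in WT and 53.9 and 53.6 CPM in ∆ntd without urea. The replicates differed by far less than the strains, and the rise was 0.52 (SE 0.14, adjusted p = 0.00352, edgeR). RSM28 (mS46), with 36.2 and 36.3 CPM in WT and 53.9 and 55.9 CPM in ∆ntd, rose by 0.60 (SE 0.15, adjusted p = 0.00249). MRPL23 rose by 0.64 (SE 0.17) and MRP49 (mL61) by 0.66 (SE 0.22), but both calls were lost without WT replicate 2 or ∆ntd replicate 1. The falls were MRPL40 (uL24, at the exit tunnel) at −0.59 (SE 0.18, lost without WT or ∆ntd replicate 1) and MRPL28 (YDR462W, chrIV:1386073-1386516, mL40) at −0.58 (SE 0.21, lost without WT replicate 2 or either ∆ntd replicate).

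Footprints of 1 member, MRPS18 (uS11), fell in ∆ntd without urea, from 54.5 and 50.5 to 34.2 and 40.6 CPM (−0.49, SE 0.12, adjusted p = 0.0467, edgeR), beside 9.21% of all genes called (3.67% higher and 5.54% lower). The call was lost in 6 of the 8 fits that left out a culture, all but those without a culture of ∆ntd in urea. In the fit of only these groups 3 members rose and 10 fell, where 19.2% of all genes rose and 19.3% fell. In the fit of all groups the member median was −0.11 beside −0.01 over all genes.

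TE between the strains without urea gave no call among the members (edgeR), where 6.49% of all genes were called (3.20% higher and 3.29% lower). At an unadjusted p under 0.05 there were 13, all lower in ∆ntd, beside 21.1% of all genes (10.6% lower). DESeq2 called 1, limma voom with a variance per group 14 (10.9% of all genes lower) and the fit of only these groups 10, all lower, beside 13.3% of all genes higher and 9.85% lower in the last. The median was −0.27 (−0.01 over all genes), 52 of 65 were below 0, and 33 did not overlap in that direction (31.2% of all genes). Among the 10 were MRPL38, MRPL23 (−0.77), MRPS9 (−0.76), MRPS12 (−0.56) and RSM22 (−0.58). The cytosolic ribosomal proteins, at a median TE change of 0.51 with 48 of 138 called higher, had the opposite sign.

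In ∆ntd, urea went with lower RNA of 6 members, beside 26.2% of all genes called (13.4% rose and 12.8% fell), and the median was −0.15 (0 over all genes). This comparison shares the ∆ntd cultures without urea with the one above. MRPL38 RNA, 43.5 and 40.8 CPM without urea, was 25.1 and 22.2 CPM with urea, a fall of 0.83 (SE 0.19, adjusted p = 0.001, edgeR) called under every alternative. MRPL31 (mL60) had 20.5 and 31.2 CPM without and 12.7 and 14.8 CPM with urea, a fall of 0.89 (SE 0.26, adjusted p = 0.01), lost without ∆ntd replicate 2 in SD or replicate 1 in urea. The other falls were MRPL33 (uL30) at −0.57, MRPS18 at −0.34, MRP51 (bS1m) at −0.31 and MRPS12 at −0.26, each lost in 3 to 8 of the fits without a culture.

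Footprints of 2 members rose and of 9 fell in ∆ntd with urea, beside 28.4% of all genes called (16.9% rose and 11.5% fell), with a median of −0.24 (0.01 over all genes). RSM7 (YJR113C, chrX:638232-638975, uS7, at the mRNA exit of the small subunit) rose from 39.8 and 41.7 CPM to 56.5 and 71.9 CPM, by 0.65 (SE 0.14, adjusted p = 0.0143, edgeR). MRPL28 rose from 24.8 and 23.6 to 33.8 and 52.2 CPM, by 0.81 (SE 0.20, adjusted p = 0.0222). RSM19 fell from 27.1 and 23.9 to 17.7 and 17.1 CPM, by 0.54 (SE 0.13, adjusted p = 0.0187), and its replicates in urea were close. The largest falls were MRPL38 (−0.97, SE 0.30), MRPL32 (bL32; −0.83, SE 0.18) and MRPL27 (mL41; −0.78, SE 0.24). MRPL38 ran from −1.75 without ∆ntd replicate 1 in urea to −0.57 without replicate 2. Its call was lost in 6 of the 8 fits without a culture, all but those 2, and that of MRPL27 in 5, without WT replicate 2 in SD, either WT culture in urea or either ∆ntd culture in SD. The calls of RSM7, MRPL28 and RSM19 were lost without either ∆ntd culture in SD, and that of MRPL32 without replicate 1 of these. MRPL28 was at 0.48 without replicate 2 in urea. In the fit of only the ∆ntd libraries 0 members passed (edgeR) and 2.20% of all genes did. Over the fits without a culture the count ran from 0 (without ∆ntd replicate 1 in SD) to 37 without ∆ntd replicate 1 in urea, where 58.1% of all genes were called, against 17 without replicate 2, where 38.8% were. By library totals none rose and 41 fell, beside 39.3% of all genes that fell, with the median of all genes at −0.42 and that of the members at −0.67.

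TE gave no call in ∆ntd (edgeR; 11.6% of all genes called, 7.29% higher and 4.27% lower), with 14 members at an unadjusted p under 0.05, 7 in each direction, beside 29.9% of all genes. DESeq2 called 1, higher, and limma voom with a variance per group 0. The median was −0.12, beside 0.04 over all genes. With ∆ntd replicate 1 in urea left out 21 members were called, where 39.4% of all genes were.

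In urea, ∆ntd and WT differed in RNA of 13 members, 10 higher and 3 lower in ∆ntd, beside 43.9% of all genes called (21.5% higher and 22.5% lower). The median was 0.09 (0.03 over all genes), and these values share their cultures with the urea responses above. MRPL22 (YNL177C, chrXIV:303686-304615) had 39.8 and 42.9 CPM in WT and 72.4 and 63.1 CPM in ∆ntd, a rise of 0.71 (SE 0.14, adjusted p = 8.26e-05, edgeR). MRPS9 (0.69, SE 0.14) and MRPL23 (0.69, SE 0.18) also rose, and these 3 were called under every alternative. MRPS18 fell from 97.1 and 96.7 to 72.4 and 67.0 CPM (−0.47, SE 0.11, adjusted p = 0.000616), and MRPL28 and MRP20 each fell by 0.58, lost without ∆ntd replicate 1 or 1 of the WT cultures. By library totals 35 rose and none fell (50.3% and 9.46% of all genes), with the median of all genes at 0.35 and that of the members at 0.41.

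Footprints in urea were higher in ∆ntd for 5 members and lower for 4 (32.9% of all genes called, 17.9% higher and 15.1% lower), with a median of 0.00 (0.02 over all genes). RSM7 rose by 0.81 (SE 0.15, adjusted p = 0.00556) and MRPL24 by 0.66 (SE 0.14, adjusted p = 0.0102; edgeR). MRP10 fell from 22.1 and 18.8 to 12.8 and 9.67 CPM (−0.86, SE 0.18, adjusted p = 0.00955). RSM22 fell from 17.6 and 14.2 to 9.32 and 8.76 CPM (−0.82, SE 0.20, adjusted p = 0.0152). MRPL36 (bL31) fell by 0.63, a call lost without either WT culture in urea. MRPL51 (mL43) was at 24.8 and 24.4 CPM in WT and at 35.7 and 73.9 CPM in ∆ntd, a rise of 1.13 (SE 0.32), which was 0.53 without ∆ntd replicate 2. Leaving out WT replicate 1 removed the calls of MRPL24, MRP10 and RSM22, and leaving out WT replicate 2 that of RSM7 (adjusted p = 0.0507, edgeR). MRPL51 overlaps another annotated coding sequence, so its reads may be shared. RSM7 was the 1 member called in the fit of only these groups (0.79, adjusted p = 0.045), and the count with a culture left out ran from 1 to 35, the latter without ∆ntd replicate 1 in urea, where 56.3% of all genes were called. By library totals 2 rose and 12 fell (10.1% and 25.5% of all genes), with the median of all genes at −0.25.

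TE in urea was called for 7 members, 4 higher and 3 lower in ∆ntd, beside 25.4% of all genes called (15.3% higher and 10.1% lower). MRPL28 TE was 1.21 and 1.25 in WT and 2.41 and 3.02 in ∆ntd, a rise of 1.18 (SE 0.33, adjusted p = 0.0168, edgeR). MRP20 rose by 1.14 (SE 0.36, adjusted p = 0.032), and these are the 2 members whose RNA fell by 0.58 above. RSM7 (0.75, SE 0.19, adjusted p = 0.0109) and MRPL51 (1.13, SE 0.39, adjusted p = 0.0484) were higher too, the latter at 0.34 without ∆ntd replicate 2. MRP10 (−0.92, SE 0.29, adjusted p = 0.0331), MRPS28 (uS15; −0.81, SE 0.28, adjusted p = 0.0499) and MRPS8 (uS8; −0.77, SE 0.22, adjusted p = 0.0207) were lower. None of the 7 was called in the fit of only these groups (edgeR; 11.3% of all genes), and each was lost in 2 to 7 of the 8 fits without a culture, those without either WT culture in urea among them. By library totals none was higher and 27 were lower, beside 40.5% of all genes lower, with the median of all genes at −0.55 and that of the members at −0.69.

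**Figure D5:**
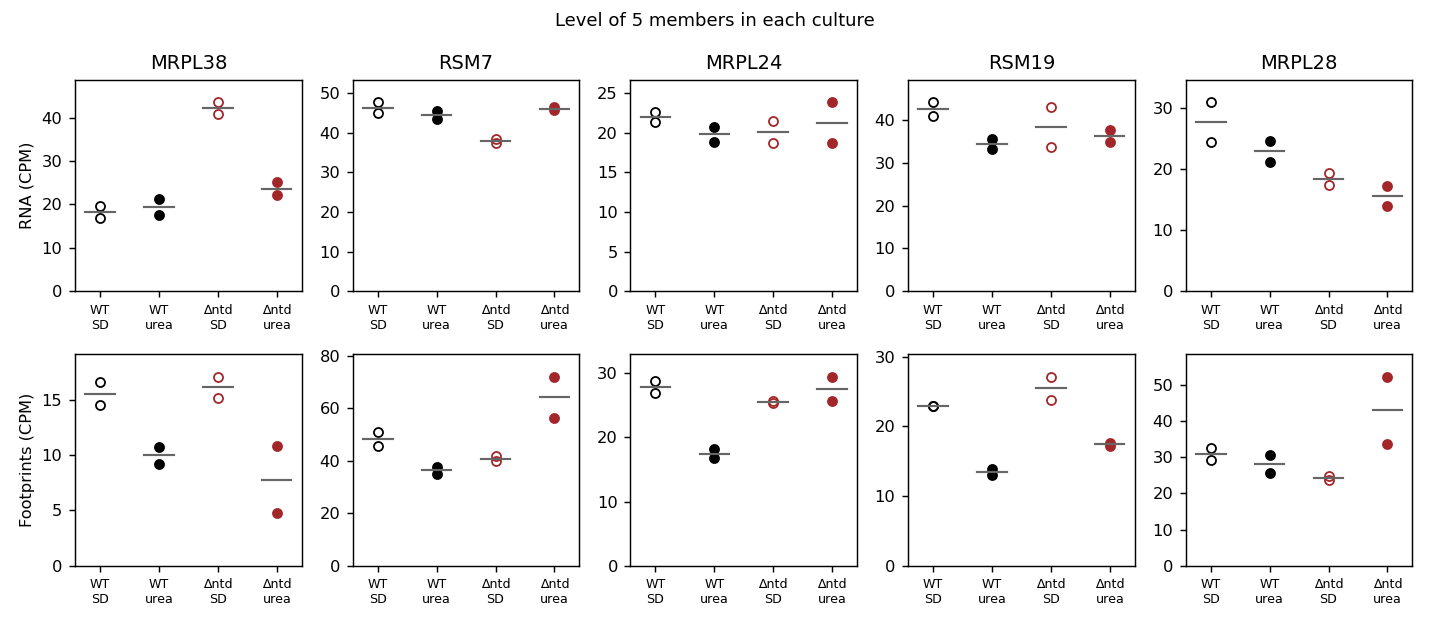
RNA (upper row) and footprints (lower row) in CPM (axes from 0) of MRPL38, RSM7, MRPL24, RSM19 and MRPL28 in the 8 cultures, open for SD and filled for urea, WT in black and ∆ntd in red, with lines for group means. MRPL38 RNA stands at 43.5 and 40.8 CPM in ∆ntd without urea and below 26 CPM elsewhere, and MRPL24 footprints are lowest in the 2 WT cultures with urea.

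The interaction test, of whether the response to urea itself differed between the strains, called 3 members. MRPL38 RNA overlapped between the media in WT, with 16.9 and 19.7 CPM in SD and 21.2 and 17.6 CPM in urea, and fell in ∆ntd, a difference of −0.90 (SE 0.27, adjusted p = 0.0312, edgeR), beside 10.4% of all genes called (4.37% positive and 6.07% negative). For footprints 8.36% of all genes were called (4.92% positive and 3.44% negative), and RSM7 and MRPL24 were the members among them. RSM7 was at 51.1 and 45.7 CPM without and 37.8 and 35.0 CPM with urea in WT, and went the other way in ∆ntd, a difference of 1.06 (SE 0.21, adjusted p = 0.0292). MRPL24 differed by 0.78 (SE 0.19, adjusted p = 0.044), being lower in urea in WT and at 25.4 and 25.6 CPM without and 25.6 and 29.4 CPM with urea in ∆ntd. The MRPL38 call was lost in 7 of the 8 fits without a culture, up to an adjusted p of 0.129, all but that without WT replicate 2 in urea. Both footprint calls were lost in 6 of the 8 fits, all but those without a culture of ∆ntd in urea, up to adjusted p = 0.152 and 0.199 (edgeR). For TE no member was called (edgeR; 0.609% of all genes, 0.267% positive and 0.343% negative), 6 were higher at an unadjusted p under 0.05 beside 11.4% of all genes, DESeq2 called 0 and limma voom with a variance per group 2 beside 4.21%.

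The medians of the large and the small subunit lay close to each other in most comparisons. The median footprint changes in WT with urea were −0.33 and −0.22, and the median TE changes −0.21 in each. Between the strains without urea the RNA medians were 0.22 and 0.16, and the TE medians −0.27 and −0.23. The RNA calls there were 8 rises and 2 falls among 37 against 5 rises and no fall among 28, beside 17.5% of all genes that rose and 19.3% that fell. The widest gap was in the TE interaction, 0.23 against 0, with no member called (edgeR). Others were in ∆ntd with urea, for RNA −0.21 against −0.06, and between strains in urea, for footprints 0.05 against −0.12 and for TE −0.03 against −0.17. Between strains in urea the TE calls were 3 higher and none lower among 37 in the large, and 1 higher and 3 lower among 28 in the small subunit. Of all genes 15.3% were called higher and 10.1% lower, and none of these member calls was kept in the fit of only the groups compared. The points of the subunits overlap in the plot of changes, and the gap was not tested.

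By place in the ribosome, a set of 8 proteins was listed for the exit tunnel, and it also held MRPL23 (uL13), which is not counted as an exit tunnel protein above. Its median footprint change in WT with urea was −0.27, from −0.63 to 0.15, with none called (edgeR). The 4 proteins of the decoding and tRNA path, MRPS12, RSM7, MRPS9 and RSM19, had a median of −0.54, from −0.78 to −0.23. Between strains in urea their fitted footprint changes had a median of 0.73, from 0.38 to 0.81, and RSM7 was the 1 called. These values include the Riboseq replicates of ∆ntd in urea that stood apart. MRPS9, with 41.7 and 38.6 CPM in WT and 39.9 and 96.3 CPM in ∆ntd, overlapped between the strains, and MRPS12 in ∆ntd was at 71.3 and 125 CPM. The RNA of the 4 proteins in that comparison was at a median of 0.10. Both sets were chosen with earlier results of these data known, and their medians depend on which members were taken.

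Genes with 1 and with more Puf3 elements were compared by their medians, and the differences were not tested. In WT with urea the median footprint change was −0.26 for the 50 genes with 1 element and −0.36 for the 14 with 2 or 3, and the RNA medians between strains without urea were 0.18 and 0.18. The medians lay further apart for footprints in ∆ntd with urea, −0.25 and −0.08, between strains in urea, −0.07 and 0.14, and in the interaction, 0.06 and 0.24, and for TE between strains in urea, −0.12 and 0.06. Other genes of the table that hold the element gave medians of −0.04 for footprints in WT with urea (803 genes tested), 0.01 for RNA (808 genes) and −0.03 for TE (801 genes) between strains without urea. The member medians for these were −0.31, 0.18 and −0.27.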

How the data were processed

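Libraries of 8 cultures were analysed, 1 RNAseq and 1 Riboseq library each. Per the study's methods and the submitters' processing notes, the authors trimmed linkers (cutadapt 1.1), removed non-coding RNA reads (Bowtie 1.1), aligned the rest to the yeast transcriptome (Bowtie 0.1.3, genome R64.2.1, sacCer3) and counted uniquely mapped reads per gene. The deposited table holds these raw counts, unnormalized. Its columns of the authors' fold changes and FDR values were not used. Reads shared by overlapping genes (MRP4, MRPL19 and MRPL51 here) or similar sequences are uncertain, and unique mapping can lower their counts.

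Counts were scaled by TMM within each assay and tested with edgeR 4.0.16 (R 4.3.3; quasi-likelihood F test, filterByExpr, prior count 0.125 for log values), with Benjamini-Hochberg adjustment over the 5486 (RNA), 5286 (footprints) or 5251 (TE) genes tested and a threshold of 0.05. TE changes were tested as the assay by group interaction in one fit of 16 libraries. 378 genes had no counts. The members and lists were chosen with earlier results of these data known. Named members (35) are the 3 largest called rises and falls without overlap in each comparison, and the 3 highest and lowest in RNA per kb and TE. The sets listed for the exit tunnel (with MRPL23) and the decoding path, and MRP51, MRP10, RSM22, RSM23, MRP7 and MRPL36, are named as well. Others were named after their values were seen. Of the 35, RSM23, MRPL3, MRPL13 and MRPL25 have no values of their own printed here.

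Replicates differed by more than counting noise (chi-square per degree of freedom 1.62 to 81.1), so each library was kept as a separate replicate. They are labelled replicates, and p-values measure the spread between them. By counting noise alone and over all libraries pooled, a member's median of 94.0 RNAseq counts limits its precision more than the 229.5 Riboseq counts. In replicate 2 of WT with urea the member median was 22.4 CPM for footprints and 30.5 CPM for RNA. These libraries held 3067506 and 5169546 counts, so the order was the reverse there. The replicate differences of the members had an SD of 0.23 to 0.29 in RNAseq. In Riboseq it was 0.57 in ∆ntd with urea, where the Riboseq replicates were the wider, and 0.15 to 0.22 elsewhere. Alternatives were DESeq2 1.42.0, limma 3.58.1 voom with a variance per group, RLE factors, library totals, other filters, a replicate block, fits of only the groups compared and leaving out each culture. The scripts were tested on simulated data. Sequences and coordinates are from RefSeq's R64 assembly, in which 6007 genes of the table were matched, 5988 of them protein-coding.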

Additional observations from a re-analysis of the deposited data

Results flagged for a closer look

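The test of the difference in the response to urea between the strains called 3 results (quasi-likelihood test of edgeR, Benjamini-Hochberg adjustment). These were 1 member for RNA, beside 10.4% of all genes, and 2 for footprints, beside 8.36%. MRPL38 RNA had a urea response of ∆ntd minus that of WT of −0.90 on the log2 scale (SE 0.27, adjusted p = 0.0312), and over 15 alternatives the adjusted p ran from 0.0182 to 0.203. RSM7 footprints had a difference of 1.06 (SE 0.21, adjusted p = 0.0292), which ran from 0.73 to 1.22 over the alternatives. MRPL24 footprints had a difference of 0.78 (SE 0.19, adjusted p = 0.044), from 0.46 to 0.89. The calls of MRPL38, RSM7 and MRPL24 were lost in 8, 7 and 11 of the 15 alternatives. The footprint results include the Riboseq replicates of ∆ntd in urea that stood apart, and the part of that spread in them was not tested further. No group has the 4 samples that a test for single outlying samples needs.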

How the results depend on the processing

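No called change of a member turned its direction under any alternative. Of 71 called changes, 38 were kept with DESeq2, 63 with RLE factors, 47 with limma voom and a variance per group, 70 with at least 10 counts in every library, 54 with library totals, 67 with no filter, 60 with the replicate block, and 38 of 68 in fits of only the groups compared, and 36 to 60 with a culture left out. Of 242 alternative medians 50 moved by more than the spread between replicates. Counts of members called that moved by over 1.5 times were as follows, as higher plus lower. The share of all genes called in the same fit stands in brackets. DESeq2 gave, for RNA, 0 in WT with urea (16.8%), 1 in ∆ntd with urea (15.5%) and 3 between strains in SD (23.7%). For RNA it also gave 4 between strains in urea (29.8%) and 0 for the interaction (4.74%). For TE it gave 1 in ∆ntd with urea (11.2%) and 1 between strains in SD (6.34%). RLE factors gave 0 for footprints between strains in SD (8.78%) and 1 for their interaction (7.62%). Limma voom with a variance per group gave 3 for RNA in ∆ntd with urea (23.8%). For footprints it gave 24 in WT with urea (27.7%) and 2 in ∆ntd with urea (13.6%). Between strains it gave, for footprints, 13 in SD (37.9%) and 2 in urea (19.9%). For TE it gave 1 in WT with urea (4.42%), 14 between strains in SD (22.5%), 4 in urea (15.2%) and 2 for the interaction (4.21%). At least 10 counts gave 1 for TE between strains in SD (6.83%), and no filter 0 for footprints there (7.92%). Library totals gave, for RNA, 6 in WT with urea (31%), 41 between strains in SD (54.3%) and 35 in urea (59.8%). For footprints they gave 7 in WT with urea (8.91%) and 41 in ∆ntd with urea (45.4%). Also for footprints, they gave 0 between strains in SD (8.32%), 14 in urea (35.6%) and 1 for the interaction (9.76%). For TE they gave 9 in ∆ntd with urea (19.4%), 9 between strains in SD (10.9%) and 27 in urea (44.6%). Under totals the median of all genes moved to −0.42 for footprints in ∆ntd with urea and to −0.24 for TE between strains in SD, where the member medians were −0.67 and −0.50, and the member medians of the footprint and TE interactions turned from 0.07 and 0.11 to −0.23 and −0.23. Fits of only the groups compared gave 3 for RNA in ∆ntd with urea (24.4%). For footprints they gave 28 in WT with urea (29.5%), 0 in ∆ntd with urea (2.2%), 13 between strains in SD (38.5%) and 1 in urea (13.9%). For TE they gave 2 in WT with urea (5.95%), 10 between strains in SD (23.2%) and 0 in urea (11.3%). The cause of these moves was not tested.

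With a replicate block the counts for footprints were 2 in WT with urea, 0 between strains in SD and 0 for the interaction. Of all genes 6.92%, 5.86% and 2.61% were called there. With a replicate block by culture in the TE fit, 1 was called in ∆ntd with urea and 1 between strains in SD, beside 10% and 4.72% of all genes. The replicate numbers showed no common pairing over the groups. Same-numbered deviations in Riboseq of WT in SD and of ∆ntd in urea correlated at −0.36, which was not tested further. The other pairs in one assay lay between −0.04 and 0.06, and the 2 libraries of a culture between −0.03 and 0.03.

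With a culture left out, the counts ran for RNA from 0 to 2 in WT with urea, 2 to 5 in ∆ntd with urea, 7 to 15 between strains in SD, 5 to 14 in urea and 0 to 1 for the interaction. For footprints they ran from 0 to 28, 0 to 37, 0 to 14, 1 to 35 and 0 to 29 in the same order, and for TE from 0 to 2, 0 to 21, 0 to 13, 0 to 22 and 0 to 12. The highest counts for footprints and TE came without replicate 1 of ∆ntd in urea and, for WT with urea and for footprints between strains in SD, equally without replicate 2. In those fits the share of all genes called was also higher than in the fit of all cultures, in every comparison and in the interaction. The rise in calls was thus not particular to the members. With higher and lower calls pooled, their share lay below that of all genes everywhere except for footprints in WT with urea. By direction this did not hold throughout. Without replicate 1 of ∆ntd in urea, a larger share of members than of all genes was called lower in TE between strains in SD. The same held for footprints in ∆ntd with urea, and in both the share called higher was smaller than that of all genes.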

Other observations

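Mitochondrial ribosomal proteins with other names, 14 genes outside the naming rule, were read from the same fits. In WT with urea the fitted footprint change was at or below 0 for the 13 tested, with a median of −0.38, and SWS2 (uS13) fell by 0.64. NAM9 (uS4 of the small subunit) had more RNA in ∆ntd than in WT in SD (0.36) and in urea (0.33), and its TE was lower by 0.70 in SD (adjusted p = 0.0186) and by 1.19 in urea (adjusted p = 0.000255, edgeR). IMG1 (bL19) and MNP1 (bL12) TE was higher in ∆ntd in urea by a fitted 1.19 each, where the fitted changes of the 13 genes tested ran from −1.19 to 1.23. For TE in that comparison 2 of the 13 genes tested were called higher and 1 lower (15.3% and 10.1% of all genes). These values include the Riboseq replicates of ∆ntd in urea that stood apart. Fits without a culture were not read for these genes. VAR1, the small subunit protein encoded in mitochondrial DNA, had 95 to 164 RNAseq counts and 0 to 3 Riboseq counts a library, and its RNA was higher in ∆ntd by 0.78 in SD (adjusted p = 3.02e-05) and by 0.97 in urea (adjusted p = 9.85e-07, edgeR).

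Among 14 mitochondrial translation and assembly factors, RNA of MEF2, an elongation factor-like protein of ribosome recycling, fell with urea by 1.03 in ∆ntd (adjusted p = 8.09e-05) and by 0.40 in WT (adjusted p = 0.0491), and the difference between the strains was not called (adjusted p = 0.102, edgeR). RNA of TUF1, the mitochondrial elongation factor Tu, was lower in ∆ntd by 0.28 in SD and by 0.36 in urea. The median footprint change of these factors in WT with urea was −0.12, with 1 of 14, the rRNA methyltransferase gene MRM1 (−0.68), called.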
